A study of Homo sapiens with 24 samples.

Results

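HGC27 cells of the line SG12, grown for 3 days in medium labelled LPDS, were compared with parental HGC27 cells grown for the same time in the same medium. HGC27 is an established human gastric carcinoma cell line. The labels give SG12 the genotype TMEM97 Knockout and the other cells the genotype Parental, so that 6 of the 24 libraries of the study, 3 of each line, enter the comparison by line and medium alone. The other libraries served as reference. They are the same 2 lines in medium labelled FBS, the line SGCTRL (labelled SG Control, WT) and SG21, another line with the TMEM97 knockout label, in both media. The labels do not spell out FBS, commonly fetal bovine serum, or LPDS, commonly serum depleted of lipoproteins. Where the guides of SG12 cut TMEM97, whether the line is 1 clone, and how its knockout was checked are not given in the sources used here. Parental cells have no guide label, so the knockout cannot be told apart from guide delivery or the history of the line in this comparison, and SGCTRL and SG21 values are set beside the main results.

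TMEM97, also called the sigma-2 receptor, is a membrane protein of the endoplasmic reticulum and endosomes that binds NPC1, the transporter that moves cholesterol out of lysosomes. When cells run short of sterol, SREBP2, the product of SREBF2, is released from the endoplasmic reticulum and raises the genes of cholesterol synthesis and of lipoprotein uptake, and TMEM97 is among its known targets. Serum without lipoproteins takes away the main outside supply of cholesterol, so cells in it depend on their own synthesis.

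The libraries were made from total RNA after removal of ribosomal RNA, with a kit that keeps strand. Parental libraries in LPDS had 2.5 to 4.08 M reads on genes and SG12 libraries 3.05 to 3.25 M, and 94.3% to 94.4% of the uniquely aligned reads were counted on no entry. Given the strand of the counts, described next, these include reads of genes that have no entry on their other strand. The share is therefore not that of reads outside genes. Most reads lie on the strand opposite to the gene an entry is named after: GAPDH averaged 57.0 CPM (counts scaled to a library of fixed size) under its own name in the 6 libraries, and 36994 CPM under an antisense transcript inside it, ENSG00000269968. A gene is therefore read here through the entry that overlaps its exons on the other strand, named in parentheses at first mention, and is called a source gene. The reading covers 2817 protein-coding genes, samples only the overlapped part of each, and does not allow levels to be compared between genes. Ambiguous reads were 2.60% to 2.65% of the reads on genes in the parental libraries and 2.99% to 3.15% in SG12. Reads leaked to genes' own names were gauged only from protein-coding genes that nothing annotated overlaps in antisense. Their part of the reads on genes, called the leaked share, was 3.47% to 3.65% in the parental libraries and 3.64% to 3.96% in SG12. It leaves out all other genes and can include RNA opposite to the named gene, so it is a proxy for leaked reads. The ambiguous share separated the lines and the leaked share nearly did. In SGCTRL in LPDS the ambiguous share was 2.11% to 2.24%, so every SGCTRL value below comes from libraries that also differ from SG12 in it. In SG21 in LPDS it was 2.71%, 2.15% and 2.18% in replicates 1 to 3, so replicates 2 and 3 lie with SGCTRL and the SG21 values below share this limit in part. With a term for that split, the entries passing against SGCTRL fell from 1402 to 181 and those against SG21 from 2343 to 1101. RNA was taken from whole cultures, in which fewer cells of a kind and less RNA per cell cannot be told apart. The design text calls the replicates independent, with no word on whether cultures, passages or days were separate, and the p-values cover no more than the spread among these libraries.

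RNA from the 3′ end of TMEM97 was not lower in SG12 than in parental cells in LPDS. TMEM97 (chromosome 17, 28319095 to 28328685, plus strand, hg38) shares 361 bases at its 3′ end with the exons of IFT20 and is read under the entry IFT20. It was at 142, 169.9 and 147 CPM in parental cells and 213, 192 and 179.6 CPM in SG12, in the order of replicates 1 to 3. All 3 SG12 libraries lay above the 3 parental ones, and the lines were fully apart, in either direction, in 39.8% of all protein-coding source genes. The log2 fold change was 0.35 ± 0.12 (SE), with an edgeR quasi-likelihood adjusted p of 0.0578, which missed the threshold of 0.05, and the adjusted p ran from 0.0192 to 0.299 over the alternatives. In FBS the order of the lines was the other way round, 105 ± 14.9 CPM (SD, n = 3) in parental cells and 52.8 ± 4.1 CPM in SG12, and the difference between the lines changed with the medium by 1.34 ± 0.18 on the log2 scale (edgeR adjusted p = 1.31e-06). In LPDS, SGCTRL had 162 ± 11.5 CPM and SG21 124 ± 3.92 CPM, and SG12 exceeded SG21 by 0.66 ± 0.12 (edgeR adjusted p = 9.86e-05). Reads confined to the 3′ end cannot reveal an edit elsewhere in the gene, so these levels check neither the knockout nor its label. IFT20, a subunit of the intraflagellar transport complex read in turn under the entry TMEM97, was at 70.2, 86.9 and 76.2 CPM in parental cells and 63.3, 58.9 and 65.1 CPM in SG12. Its parental libraries all lay above those of SG12, and the log2 fold change of -0.32 ± 0.14 did not pass (edgeR adjusted p = 0.162). Against SGCTRL it passed as lower (-0.55 ± 0.14, edgeR adjusted p = 0.00893).

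The promoter of TMEM97 is shown because the gene is itself under sterol control and its level in SG12 moved with the medium. CCAAT, the core of the site bound by NF-Y, a factor that acts beside SREBP at many sterol genes, occurs 3 times in the 250 bases before the RefSeq start of the gene, counting both strands, and 32% of 35116 RefSeq promoter windows of that length hold it. The printed stretch (GRCh38.p14, chr17:28318950-28319094, plus strand, 5′ to 3′) ends where GENCODE 29 places the start of the gene, and 2 of the 3 matches fall in it, in capitals.
TMEM97: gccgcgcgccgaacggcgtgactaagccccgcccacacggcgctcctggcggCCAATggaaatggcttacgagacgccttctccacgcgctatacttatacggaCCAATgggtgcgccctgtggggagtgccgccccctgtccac

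Of 12822 entries tested, 1243 (9.69%) passed in SG12 against parental cells in LPDS, 595 higher (4.64%) and 648 lower (5.05%). Among the 2817 protein-coding source genes 437 (15.5%) passed, 199 higher (7.06%) and 238 lower (8.45%), and the median log2 fold change was -0.01. These shares are the background for the gene groups below, since a group in which about 15.5% of the members pass does not stand out by its count. The 3 libraries of each line were fully apart, without overlap, in 1122 source genes (39.8%) and 3886 of all entries (30.3%). The count of 1243 fell to 538 without parental replicate 2, to 747 without parental replicate 1, and to 776, 725 and 746 without SG12 replicate 1, 2 or 3. The 19 source genes named below for the size of their change (9 rises and 10 falls above 48.7 CPM) all passed in each of these fits. They were picked from the same libraries for passing, a large fold and the lines apart, so this is no independent check.

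**Figure D1:**
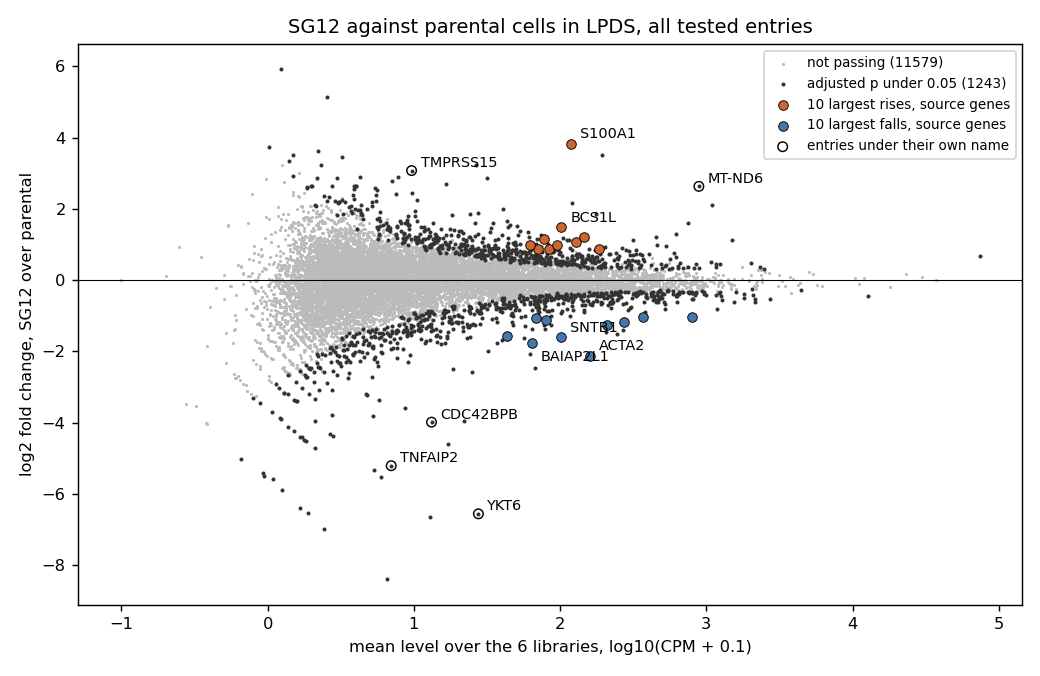
Each point is a tested entry, with its mean level over the 6 libraries on the x axis (log10 of CPM + 0.1) and the log2 fold change of SG12 over parental cells in LPDS on the y axis; dark points passed. The 10 largest rises and falls among source genes above 48.7 CPM are coloured, and S100A1 (3.83) stands above the other rises and ACTA2 (-2.12) below the other falls, while the open circles mark 5 entries read under their own names.

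Among source genes that averaged above 48.7 CPM over all libraries and had the lines apart, S100A1 rose the most and ACTA2 fell the most. S100A1 (S100A13; chromosome 1, 153627926 to 153632039, plus strand), a calcium-binding protein best known from muscle, was at 12.6, 20.1 and 13.2 CPM in parental cells and 213, 235 and 214 CPM in SG12. No parental library came near the level of an SG12 library, and the log2 fold change was 3.83 ± 0.21 (edgeR adjusted p = 1.63e-16). SGCTRL had 19.7 ± 2.14 CPM (SD, n = 3) and SG21 10.8 ± 3.05 CPM in LPDS, so that SG12 was higher than each of them too, by 3.49 ± 0.20 and 4.36 ± 0.22 (edgeR adjusted p = 6.37e-16 and 1.56e-17). BCS1L (ZNF142; chromosome 2, 218658764 to 218663443, plus strand), which inserts the iron-sulfur protein into complex III of the respiratory chain, rose from 42.2, 55.1 and 61.7 CPM to 125, 160.3 and 165 CPM, with a log2 fold change of 1.49 ± 0.16 (edgeR adjusted p = 2.15e-08). It too was higher than in SGCTRL (1.83 ± 0.16) and SG21 (1.88 ± 0.16), whose means were 42.2 ± 3.77 and 41.0 ± 7.3 CPM.

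Other large rises were of genes with varied roles. HNRNPU (COX20), a nuclear RNA-binding protein, rose by 1.22 ± 0.17 on the log2 scale, ALDH3A1 (ENSG00000264785), an aldehyde dehydrogenase, by 1.16 ± 0.15, and CCDC3 (ENSG00000285520), a secreted protein, by 1.07 ± 0.14. GPR146 (ENSG00000257607), an orphan receptor linked to blood cholesterol, rose by 0.99 ± 0.13, MRPS14 (CACYBP), a protein of the mitochondrial ribosome, by 0.99 ± 0.21, and HSD3B7 (ENSG00000279196), an enzyme of bile acid synthesis, by 0.89 ± 0.14. SH3GLB2 (NUP188), an endophilin, rose by 0.88 ± 0.18. For these 7 genes the edgeR adjusted p ran from 7.84e-07 (ALDH3A1) to 0.00192 (MRPS14). The libraries of both lines were apart in each of the 7, a condition of naming them. HNRNPU, for one, was at 83.6, 79.3 and 98.4 CPM in parental cells and 213, 212 and 184 CPM in SG12, and MRPS14, whose parental libraries spread widely, at 26.8, 41.1 and 56.7 CPM in parental cells and 85.0, 83.2 and 82.0 CPM in SG12. SG12 did not differ from SG21 past the threshold in GPR146 (0.12 ± 0.13), MRPS14 (0.20 ± 0.20) and HNRNPU (0.10 ± 0.16), with edgeR adjusted p of 0.604, 0.578 and 0.748. CCDC3 was higher in SG21 than in SG12, at 249 ± 42.0 CPM against 174 ± 14.9 CPM (SG12 minus SG21 -0.52 ± 0.13, edgeR adjusted p = 0.0042).

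ACTA2, smooth muscle actin, and THY1, a surface glycoprotein of fibroblasts and neurons, fell in SG12. ACTA2 (ACTA2-AS1; chromosome 10, 88935074 to 88991339, minus strand) was at 279, 253 and 247 CPM in parental cells and 51.6, 59.5 and 67.4 CPM in SG12. Each SG12 library held less than any parental one, and the log2 fold change was -2.12 ± 0.14 (edgeR adjusted p = 7.94e-14). SG21 had a level close to that of SG12, 53.8 ± 8.4 CPM (SD, n = 3) against 59.5 ± 7.87 CPM, with a difference of 0.14 ± 0.15 (edgeR adjusted p = 0.585), while SGCTRL had 184 ± 13.8 CPM. THY1 (THY1-AS1) went from 515, 519 and 462 CPM to 248, 247 and 228 CPM, a log2 fold change of -1.05 ± 0.11 (edgeR adjusted p = 2.27e-08). Its level in SG21, 321 ± 28.3 CPM, lay between those of SG12 and parental cells, and SG12 minus SG21 was -0.41 ± 0.11 (edgeR adjusted p = 0.00749). PIEZO2 (ENSG00000264843), a mechanically gated channel, fell by 1.11 ± 0.14 from 114, 105 and 107 CPM to 50.4, 46.3 and 53.7 CPM, and SG21 was at 51.4 ± 3.54 CPM.

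The promoter of the shorter ACTA2 transcripts is shown because ACTA2 had the largest fall among these source genes. CArG boxes, the sites of serum response factor, occur 2 times in the 250 bases before that start, allowing 1 base other than A or T in the middle of the box. ACTA2 has 2 RefSeq windows, and the window not shown holds no such match. At least 1 such match is held by 7.04% of the 35116 RefSeq windows of this length. The matches are in capitals and lie 121 and 71 bases before the start (GRCh38.p14, chr10:88952774-88953023, minus strand, 5′ to 3′). A match is a description of the sequence and does not show binding in these cells.
ACTA2: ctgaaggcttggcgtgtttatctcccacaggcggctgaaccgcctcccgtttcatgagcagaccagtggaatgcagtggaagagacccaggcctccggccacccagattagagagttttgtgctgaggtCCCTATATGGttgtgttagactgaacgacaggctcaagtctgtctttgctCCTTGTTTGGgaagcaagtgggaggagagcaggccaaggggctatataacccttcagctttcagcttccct

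Further large falls were not shared with SG21. BAIAP2L1 (BRI3), which links membranes to actin, was at 95.8, 103 and 96.5 CPM in parental cells and 24.9, 33.8 and 28.3 CPM in SG12, and SNTB1 (MTBP), beta-1-syntrophin of the dystrophin complex, at 153, 165 and 138 CPM in parental cells and 46.9, 49.0 and 53.7 CPM in SG12. All SG12 libraries lay far below the parental ones in both genes. The log2 fold changes were -1.76 ± 0.13 and -1.61 ± 0.12 (edgeR adjusted p = 3.89e-12 for each). SG12 was also lower than SG21, with differences of -2.40 ± 0.13 and -1.62 ± 0.12, and than SGCTRL, with -2.43 ± 0.13 and -2.22 ± 0.12. KCNG1 (ENSG00000232358), a modifier subunit of potassium channels, fell by 1.58 ± 0.24 on the log2 scale, SULF2 (ENSG00000255438), a heparan sulfatase, by 1.25 ± 0.11, SAMD11 (NOC2L) by 1.18 ± 0.11 and C1orf122 (YRDC) by 1.07 ± 0.18, and each was lower than in SGCTRL and SG21 too. SAMD11 and SNTB1 had the opposite order in FBS, where SG12 stood at 906 ± 54.9 and 203 ± 24.9 CPM and parental cells at 359.7 ± 51.6 and 122 ± 5.39 CPM. The medium changed the difference between the lines by -2.51 ± 0.15 and -2.34 ± 0.17 (edgeR adjusted p = 5.51e-15 and 8.04e-13).

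**Figure D2:**
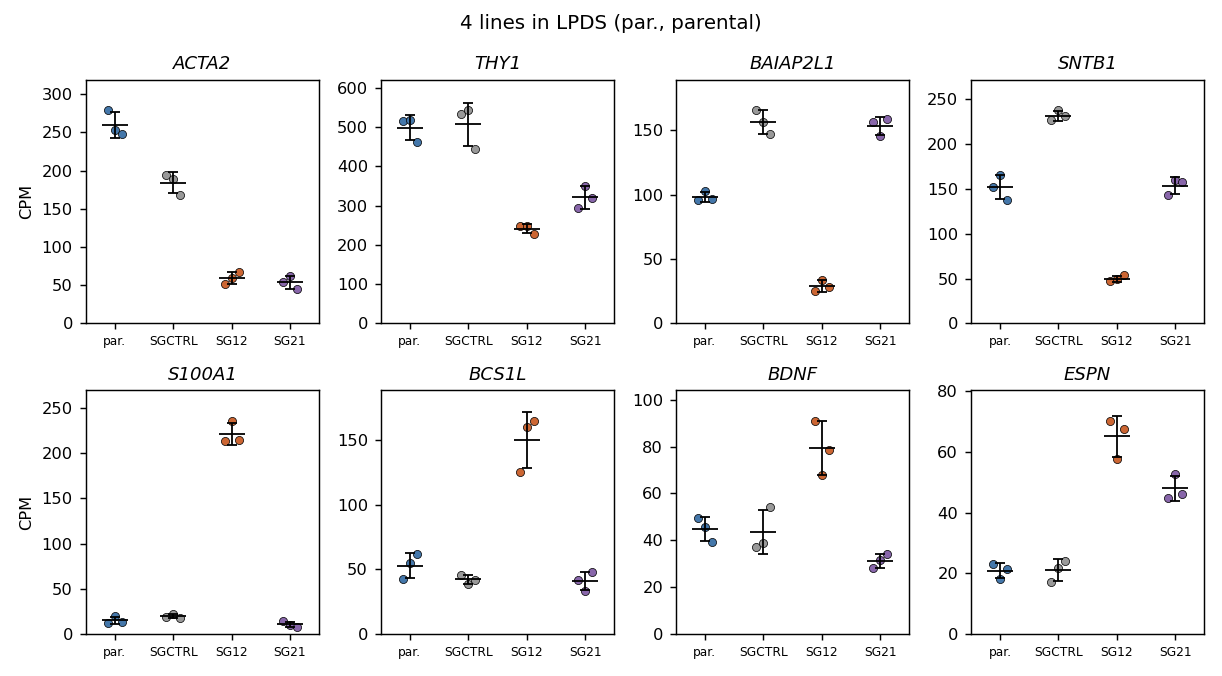
CPM of 8 genes in LPDS for parental (par.), SGCTRL, SG12 and SG21 cells; points are the 3 libraries of a line, the bar is their mean and the whiskers 1 SD. ACTA2 is low in SG12 and SG21 alike (59.5 and 53.8 CPM), whereas BAIAP2L1, SNTB1, S100A1 and BCS1L stand apart in SG12 alone among the 4 lines.

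The gene lists, read by source gene, differed in the share of members that passed. Of 36 lists, 32 had at least 1 measured member. The largest counts of lower members were those of DNA replication (5 of 11), integrated stress response (4 of 10) and oxidative stress and iron (4 of 7), set against 8.45% lower among all source genes. Their medians were -0.38, -0.38 and -0.45, beside -0.01 over all source genes. SLC7A11 counts in both the stress response and the oxidative stress list. Members and lists were chosen with earlier results of these data known, so these shares describe the lists and are no independent test. No list had more than 3 higher members, and 7.06% of all source genes were higher.

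**Figure D3:**
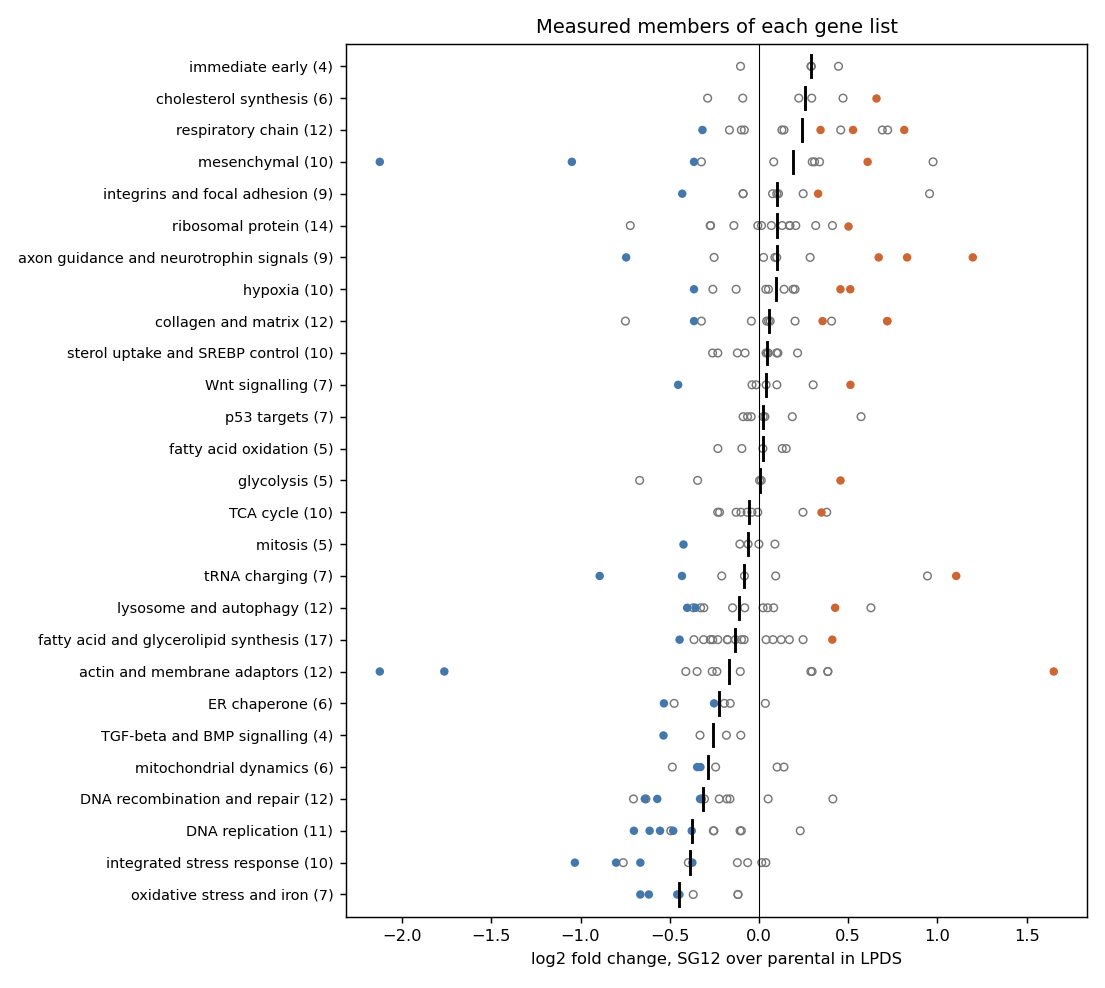
Log2 fold change of SG12 over parental cells in LPDS (x axis) for each measured member of the lists with at least 4 measured members (y axis, number measured in parentheses). Filled points passed (orange higher, blue lower), open points did not, and the bar is the list's median, lowest for oxidative stress and iron (-0.45).

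Of 6 measured genes of cholesterol synthesis, LSS rose in SG12 in LPDS and the others did not pass. LSS (ENSG00000223901; chromosome 21, 46188141 to 46228824, minus strand), which closes the sterol rings to give lanosterol, was at 505, 463 and 476 CPM in parental cells and 679.9, 787 and 803 CPM in SG12. The lowest SG12 library exceeded the highest parental one, and the log2 fold change was 0.65 ± 0.10 (edgeR adjusted p = 1.51e-05). The median of the list was 0.26. HMGCS1 (ENSG00000261604), which makes HMG-CoA, was at 1920.4, 2617 and 2368 CPM in parental cells and 2483, 2823 and 2756 CPM in SG12, with overlapping libraries and a log2 fold change of 0.22 ± 0.10. IDI1 (IDI2-AS1), isopentenyl diphosphate isomerase, was at 441, 422 and 531 CPM in parental cells and 642, 604 and 688 CPM in SG12 (0.47 ± 0.17), with the lines apart, as in 39.8% of all source genes. FDFT1 (ENSG00000255046), squalene synthase, was at 0.30 ± 0.21 and ACAT2 (TCP1), the cytosolic acetoacetyl-CoA thiolase, at -0.09 ± 0.10. Their edgeR adjusted p ran from 0.0691 (IDI1) to 0.645 (ACAT2). IDI1 passed as higher with no count filter (edgeR adjusted p = 0.00222), with the spread from the compared groups alone (0.000286) and with a term that splits all libraries by their share of ambiguous reads (0.00626). That split does not separate the SG12 from the parental libraries in LPDS. IDI1 also passed against SGCTRL (0.60 ± 0.17, edgeR adjusted p = 0.0149). It did not pass under the other alternatives, among them DESeq2's Wald test, the leaked share as a covariate and each single library left out. Against SGCTRL in place of parental cells, HMGCS1 was lower in SG12 (-0.52 ± 0.10, edgeR adjusted p = 0.000433), where SGCTRL had 3864 ± 198 CPM, and the LSS difference was 0.24 ± 0.10 (edgeR adjusted p = 0.119), no longer past the threshold. SGCTRL and SG12 libraries lie on opposite sides of the split in ambiguous reads, so line and split go together in these SGCTRL values.

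Sterol uptake and SREBP control had 10 measured members, none of which passed in either direction (median 0.04). Their folds ran from -0.26 (LRP8) to 0.22 (NPC1). SREBF2 (SREBF2-AS1) was at 516, 595 and 545 CPM in parental cells and 487, 613 and 612 CPM in SG12 (0.05 ± 0.11), SREBF1 (RAI1), its relative for fatty acid genes, at 0.11 ± 0.18, and NPC1 (RMC1) at 0.22 ± 0.16. The SG12 and parental libraries overlapped in all 3 of these genes, and the sign of the SREBF1 and SREBF2 folds turned when single libraries were left out.

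The difference between the lines in these genes depended on the medium. For the cholesterol list, the change of the SG12 minus parental difference from FBS to LPDS had a median of 1.08 and 5 of 6 members passed as higher, where 15.4% of all source genes passed in either direction and 5.61% as higher. HMGCS1 stood at 962 ± 53.5 CPM (SD, n = 3) in parental cells and 485 ± 73.2 CPM in SG12 in FBS, and at 2302 ± 353 and 2687 ± 180.2 CPM in LPDS, a change of 1.21 ± 0.15 (edgeR adjusted p = 2.54e-07). ACAT2 stood at 261 ± 19.4 and 126 ± 3.15 CPM in FBS, and changed by 0.96 ± 0.15. LSS stood at 236 ± 16.0 and 179.6 ± 4.43 CPM in FBS, and changed by 1.04 ± 0.14. The change of IDI1 was 1.12 ± 0.24. FDFT1 (0.40 ± 0.30) and SREBF2 (0.35 ± 0.15) did not pass (edgeR adjusted p = 0.486 and 0.164). HMGCS1, ACAT2, LSS and IDI1 passed in each fit with 1 of the 12 libraries left out and with the leaked share as a covariate, under which the count over all entries went from 1031 to 374.

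**Figure D4:**
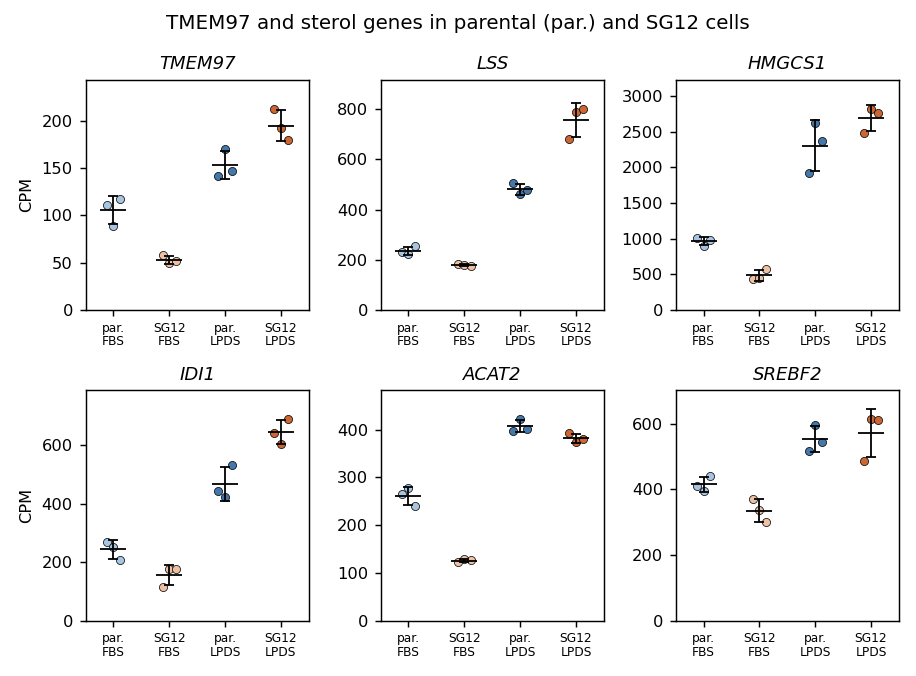
CPM of TMEM97 and 5 sterol genes in parental (par.) and SG12 cells in FBS and LPDS; points are the 3 libraries of a group, the bar is their mean and the whiskers 1 SD. SG12 lies below parental cells in FBS, as in ACAT2 (126 against 261 CPM), while in LPDS LSS stands above them (757 against 482 CPM) and the other genes do not pass.

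Of 10 measured genes of the integrated stress response, the program that ATF4 drives when amino acids or other needs run short, 4 fell in SG12 in LPDS and none rose (median -0.38). SLC7A5 (ENSG00000260466; chromosome 16, 87830023 to 87869488, minus strand), the large neutral amino acid transporter, was at 1133, 1039 and 1060.2 CPM in parental cells and 555, 525 and 500.2 CPM in SG12. SLC1A5 (ENSG00000275719), the glutamine transporter, was at 1594, 1565 and 1360.3 CPM in parental cells and 936, 869 and 789 CPM in SG12, and SLC7A11 (SLC7A11-AS1), the cystine transporter, at 268, 369 and 358 CPM in parental cells and 226, 215 and 187 CPM in SG12. In these 3 transporters each SG12 library lay below each parental one, and the log2 fold changes were -1.03 ± 0.16, -0.80 ± 0.13 and -0.66 ± 0.11 (edgeR adjusted p = 2.18e-05, 4.92e-05 and 7.62e-05). MTHFD2 (SLC4A5), a mitochondrial folate enzyme, had overlapping libraries, 391, 536 and 484 CPM in parental cells and 402, 390.3 and 298 CPM in SG12, and fell by 0.37 ± 0.12 (edgeR adjusted p = 0.0491). Its call was lost without parental replicate 2 or 3 or SG12 replicate 2 or 3 (adjusted p up to 0.316), with no count filter and with the leaked share as a covariate. Members with no call included VEGFA (0.04) and SHMT2 (0.02), the 2 members with folds above 0, and the other 8 folds of the list were below 0. The transporters were lower than in SGCTRL and SG21 as well, SLC7A5 with differences of -1.01 ± 0.16 and -1.35 ± 0.16, SLC1A5 with -0.78 ± 0.13 and -1.23 ± 0.13, and SLC7A11 with -0.90 ± 0.11 and -0.77 ± 0.11.

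Of 7 measured genes of tRNA charging, 2 fell and 1 rose. WARS1 (ENSG00000258666; chromosome 14, 100333788 to 100376805, minus strand), which charges the tRNA for tryptophan and is also induced by interferon, was at 494, 487 and 494 CPM in parental cells and 283, 274 and 237 CPM in SG12. The parental libraries lay close together, far above those of SG12, and the log2 fold change was -0.89 ± 0.10 (edgeR adjusted p = 5.76e-08). AIMP2 (EIF2AK1), a scaffold of the multi-synthetase complex, was at 1416, 1519.8 and 1420.1 CPM in parental cells and 1175, 1102 and 952 CPM in SG12 and fell by 0.43 ± 0.10 (edgeR adjusted p = 0.00548). CARS1 (CARS1-AS1), which charges the tRNA for cysteine, rose from 7.71, 4.65 and 8.77 CPM to 15.7, 17.6 and 11.7 CPM (1.10 ± 0.31), a low level whose call was lost without parental replicate 2 or SG12 replicate 1 or 2 (adjusted p up to 0.157) and with SGCTRL as control.

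WARS1, AIMP2 and SLC7A11 were higher in SG12 than in parental cells in FBS, the opposite order. WARS1 averaged 1239 ± 84.7 CPM (SD, n = 3) in SG12 and 369.9 ± 37.3 CPM in parental cells in FBS, and the difference between the lines changed by -2.64 ± 0.14 from FBS to LPDS (edgeR adjusted p = 5.53e-16). AIMP2 changed by -1.67 ± 0.15, with 3330.2 ± 238 CPM in SG12 and 1416 ± 287 CPM in parental cells in FBS, and SLC7A11 by -1.83 ± 0.16, with 450.1 ± 14.2 and 200.4 ± 22.3 CPM. In the stress response list 7 of 10 members passed as lower in this change and none as higher, with a median of -1.17, where 9.8% of all source genes were lower. Without single libraries 6 or 7 passed, and 5 with the leaked share as a covariate. The change of SLC7A5 went from -1.51 ± 0.22 to -0.80 with that covariate and no longer passed (edgeR adjusted p = 0.0691). In parental cells in FBS, replicate 2 had 488 CPM of SLC7A5, against 1036 and 1021 CPM in replicates 1 and 3. For SLC1A5 it had 842 CPM, against 1301 and 1313 CPM. The same library had the highest leaked share of all, 4.56%.

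Of 11 measured genes of DNA replication 5 fell in SG12 and none rose, and 10 of the 11 folds were below 0. MCM2 (ENSG00000285600; chromosome 3, 127598223 to 127622436, plus strand), a subunit of the replicative helicase, was at 577, 589 and 522 CPM in parental cells and 423, 351 and 329 CPM in SG12. GINS4 (ENSG00000253174), a part of the same helicase complex, was at 181, 179 and 187 CPM in parental cells and 131, 96.1 and 109 CPM in SG12. Both were lower in each SG12 library than in any parental one, with log2 fold changes of -0.61 ± 0.11 and -0.70 ± 0.15 (edgeR adjusted p = 0.000132 and 0.00156). CDK2 (ENSG00000258554), a kinase of S phase entry, fell by 0.38 ± 0.11, CCNE2 (INTS8), its cyclin, by 0.55 ± 0.18, and PRIM1, a primase subunit, by 0.48 ± 0.16. Without single libraries 2 to 5 replication genes fell, and 3 with the leaked share as a covariate, under which CCNE2 and PRIM1 did not pass. In CCNE2, SG12 replicate 1 (83.4 CPM) lay within the parental range and the other two at 41.3 and 46.5 CPM below it.

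Of 12 measured recombination and repair genes 3 fell and none rose (median -0.31). RAD54L (LRRC41), a motor protein of homologous recombination, was at 232, 248 and 229 CPM in parental cells and 172, 141 and 142 CPM in SG12, FANCI (POLG), of the Fanconi anemia pathway of crosslink repair, at 287, 301 and 286 CPM in parental cells and 228, 178 and 183 CPM in SG12, and XRCC3 (KLC1), which acts in homologous recombination, at 929, 836 and 909 CPM in parental cells and 719, 681 and 726 CPM in SG12. The lines were apart in all 3, with log2 fold changes of -0.64 ± 0.11, -0.57 ± 0.11 and -0.33 ± 0.08. Of 5 mitosis genes, PLK1 (ENSG00000261266), the polo-like kinase, fell by 0.42 ± 0.12 from 402, 392 and 366 CPM to 308, 284 and 273 CPM, and the others did not pass. The call of CDK2 was lost without parental replicate 1 or 2 or SG12 replicate 2 or 3 (adjusted p up to 0.124), that of PLK1 without the same 4 libraries (up to 0.107), and that of CCNE2 without any library but SG12 replicate 1 (up to 0.207). XRCC3 was lost without parental replicate 1 (adjusted p = 0.0615), CDK2 and XRCC3 with no count filter, CCNE2 with the leaked share as a covariate, and CCNE2 and XRCC3 with SGCTRL as control.

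SG12 stood further below parental cells in FBS than in LPDS in several of these genes. MCM2 averaged 647 ± 34.6 CPM (SD, n = 3) in parental cells and 144 ± 8.32 CPM in SG12 in FBS, against 562 ± 35.7 and 368 ± 48.9 CPM in LPDS, a change of 1.55 ± 0.15 (edgeR adjusted p = 2.64e-09). RAD54L changed by 1.33 ± 0.16, from 295 ± 10.8 and 75.0 ± 14.1 CPM in FBS. Over the lists, 5 of 11 replication, 4 of 12 recombination and 4 of 5 mitosis genes passed as higher in this change and none as lower. Of all source genes 5.61% passed as higher in it and 9.8% as lower. With the leaked share as a covariate 6, 2 and 2 genes of these lists passed as higher. SG21 stood on the other side of parental cells, at 1043 ± 143 CPM for MCM2 and 346 ± 22.3 CPM for RAD54L in LPDS. SG12 was lower than SG21 in 10 of the 11 replication genes, where 20.6% of all source genes were lower, with a difference of -1.50 ± 0.11 in MCM2.

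**Figure D5:**
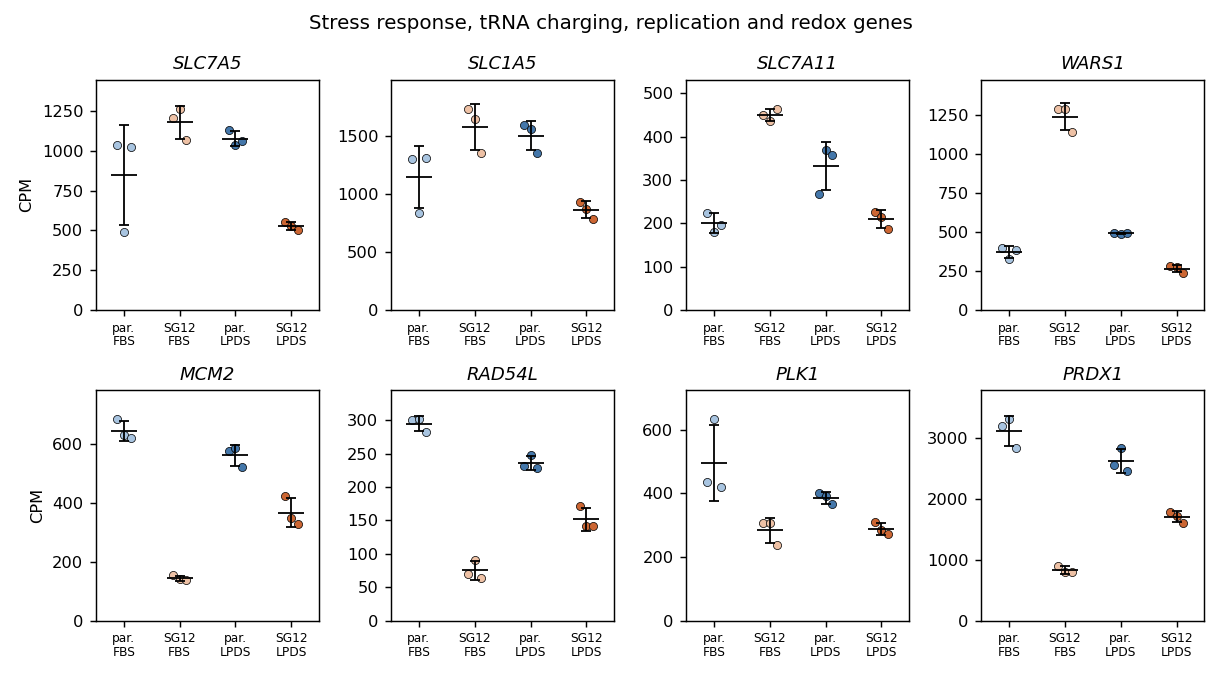
CPM of 8 genes in parental (par.) and SG12 cells in FBS and LPDS; points are the 3 libraries of a group, the bar is their mean and the whiskers 1 SD. WARS1 and SLC7A11 are above parental cells in SG12 in FBS and below them in LPDS, while MCM2, RAD54L, PLK1 and PRDX1 are below them in both media.

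Of 7 measured genes of redox balance and iron storage 4 fell and none rose, and all 7 folds were below 0. PRDX1 (MMACHC), a peroxiredoxin, was at 2558, 2828 and 2451 CPM in parental cells and 1787, 1717 and 1606 CPM in SG12, and FTH1 (BEST1), the ferritin heavy chain, at 14851, 14803 and 14127 CPM in parental cells and 10901, 10627 and 10343 CPM in SG12. The lines did not overlap in either, and the log2 fold changes were -0.62 ± 0.08 and -0.46 ± 0.08 (edgeR adjusted p = 3.29e-06 and 0.000278). NQO1 (ENSG00000261602), a quinone reductase controlled by NRF2, fell by 0.45 ± 0.12, and SLC7A11, described above, is the fourth of them. PRDX1 was further below parental cells in FBS, at 830.4 ± 62.7 CPM (SD, n = 3) against 3108 ± 248 CPM, and FTH1 was not, at 14643 ± 476 against 13508 ± 1000.2 CPM. The difference between the lines changed by 1.29 ± 0.12 in PRDX1 and by -0.57 ± 0.12 in FTH1 from FBS to LPDS. Of 6 endoplasmic reticulum chaperones, CALR (ENSG00000267458), calreticulin, fell by 0.53 ± 0.14 and PDIA6 (ATP6V1C2), a disulfide isomerase, by 0.25 ± 0.08. NQO1 was lost without parental replicate 2 or SG12 replicate 3 (adjusted p up to 0.116), CALR without parental replicate 2 (0.0762), PDIA6 without any library but parental replicate 3 (up to 0.279), and all 3 with the leaked share as a covariate. FTH1 did not pass with SGCTRL as control (-0.21 ± 0.08), nor PDIA6 with no count filter.

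Actin and mesenchymal genes moved in both directions. Of 12 actin and membrane adaptor genes, ACTA2 and BAIAP2L1 fell and ESPN (TNFRSF25), an actin-bundling protein of microvilli and hair cells, rose from 23.1, 18.1 and 21.4 CPM to 70.2, 57.5 and 67.7 CPM, a log2 fold change of 1.65 ± 0.19 (edgeR adjusted p = 5.76e-08). SG21 had 48.0 ± 4.24 CPM (SD, n = 3), and SG12 minus SG21 was 0.44 ± 0.17 (edgeR adjusted p = 0.075). Of 10 mesenchymal genes, ACTA2, THY1 and LOX (SRFBP1), lysyl oxidase, fell and ZEB2 (ZEB2-AS1), a repressor of epithelial genes, rose, with a median of 0.19. LOX fell by 0.36 ± 0.10 and ZEB2 rose by 0.61 ± 0.19. VIM, vimentin, was at 0.08 ± 0.11 and did not pass. LOX was lost without parental replicate 1 or 2 or SG12 replicate 1 (adjusted p up to 0.0822), with no count filter, with the leaked share as a covariate and with SGCTRL as control. ZEB2 was lost without any library but parental replicate 1 (up to 0.211) and when library size was taken as all uniquely aligned reads.

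Of 9 measured genes of axon guidance and neurotrophin signals 3 rose and 1 fell. BDNF (BDNF-AS), brain-derived neurotrophic factor, was at 49.5, 45.5 and 39.2 CPM in parental cells and 91.0, 68.0 and 78.8 CPM in SG12, and NRP1 (ENSG00000238258), a co-receptor of semaphorins and VEGF, at 119, 94.7 and 106 CPM in parental cells and 168, 172 and 167 CPM in SG12. The lines were apart in both, with log2 fold changes of 0.83 ± 0.17 and 0.67 ± 0.14 (edgeR adjusted p = 0.000966 and 0.00164). NGFR (ENSG00000279036), the low-affinity neurotrophin receptor, rose by 1.20 ± 0.33 and NRP2 (ENSG00000225216), the relative of NRP1, fell by 0.74 ± 0.21. BDNF and NRP1 were higher than in SGCTRL (0.85 ± 0.16 and 1.08 ± 0.14) and SG21 (1.34 ± 0.17 and 1.90 ± 0.15), and further above parental cells in FBS, with changes from FBS to LPDS of -1.36 ± 0.24 and -1.23 ± 0.20.

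Of 12 matrix genes 3 rose and 1 fell. LAMA5 (LAMA5-AS1), a laminin chain of basement membranes, was at 264, 227 and 223 CPM in parental cells and 367, 392 and 413 CPM in SG12, and COL18A1 (SLC19A1), the collagen of the same membranes, at 99.5, 103 and 104 CPM in parental cells and 151, 180.3 and 174 CPM in SG12. They rose by 0.72 ± 0.11 and 0.72 ± 0.11, with the lines apart, and TIMP2 (ENSG00000267601), an inhibitor of matrix proteases, by 0.36 ± 0.10. SG12 exceeded SG21 in LAMA5 (0.67 ± 0.11) and not past the threshold in COL18A1 (0.05 ± 0.11). LTBP1 (ENSG00000285577), which holds latent TGF-beta in the matrix, fell from 545, 588 and 551 CPM to 369.9, 408 and 384 CPM, by 0.54 ± 0.10. In Wnt signalling NKD1 (ENSG00000205414), a feedback inhibitor, rose by 0.51 ± 0.15 and WNT11 (ENSG00000254933), a ligand, fell by 0.45 ± 0.15, and in cell adhesion ILK (TAF10), integrin-linked kinase, rose by 0.33 ± 0.09 and ITGAV (ENSG00000227227), the alpha V integrin, fell by 0.43 ± 0.13. Of the 12 genes named in this group of signals, matrix and adhesion, LOX apart, 7 lost their call without some single library, with highest adjusted p between 0.0906 and 0.174. These were all but BDNF, NRP1, LTBP1, LAMA5 and COL18A1, and 7 calls were lost without parental replicate 2, 7 without SG12 replicate 3, 5 without parental replicate 3, 4 without parental replicate 1, 4 without SG12 replicate 2 and 3 without SG12 replicate 1. With SGCTRL as control 6 of the 12 did not pass (NGFR, NRP2, TIMP2, ILK, ITGAV and WNT11, edgeR adjusted p up to 0.34). With no count filter WNT11 and ITGAV did not pass, and with the leaked share as a covariate NKD1 did not (0.42, edgeR adjusted p = 0.0731).

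Other metabolic and organelle genes moved in both directions. Of 12 respiratory chain genes read by source, NDUFB9 (MTSS1), ATP5ME (MYL5) and SDHC (CFAP126), subunits of complexes I, V and II, rose by 0.53 ± 0.15, 0.81 ± 0.23 and 0.34 ± 0.11, and NDUFS7 (ENSG00000248015), of complex I, fell by 0.32 ± 0.10. Among genes of mitochondrial dynamics, PHB1 (ENSG00000250186), prohibitin, fell by 0.33 ± 0.10 and PINK1 (PINK1-AS), the mitophagy kinase, by 0.35 ± 0.11. ALDOC (ENSG00000265168), a glycolytic aldolase induced by hypoxia, rose from 734, 700.1 and 707 CPM to 821, 1130.3 and 986 CPM (0.46 ± 0.10), as did ANKRD37 (UFSP2), another hypoxia gene (0.51 ± 0.15). In the lysosome list of 12, the protease TPP1 (ENSG00000255680) rose by 0.43 ± 0.12, and CTSA (ENSG00000271984), cathepsin A, and HEXA (ENSG00000261460), a hexosaminidase, fell by 0.40 ± 0.11 and 0.36 ± 0.12. In phospholipid synthesis CHPT1 (SYCP3), a choline phosphotransferase, rose by 0.41 ± 0.13 and PEMT (ENSG00000264666), which methylates phosphatidylethanolamine, fell by 0.45 ± 0.13. DTX3L (PARP9), an interferon-induced ubiquitin ligase, fell by 1.34 ± 0.31 and RPL17 (ENSG00000265496), a ribosomal protein, rose by 0.50 ± 0.14, the only ribosomal gene of 14 measured that passed.

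All 15 of these metabolic and organelle calls were lost without some single library, with highest adjusted p between 0.0843 (ALDOC) and 0.31 (HEXA). Parental replicate 2 or SG12 replicate 2 each ended 10 of them, parental replicate 1 and SG12 replicates 1 and 3 ended 9 each, and parental replicate 3 ended 5. With no count filter 9 were lost, with the leaked share as a covariate 6, and with SGCTRL as control 7, among them ALDOC (-0.03). ATP5ME did not pass in DESeq2's Wald test (adjusted p = 0.086), and SDHC and CHPT1 did not with the stricter filter or when library size was taken as all uniquely aligned reads. The lists of p53 targets (7 measured), fatty acid oxidation (5), immediate early genes (4), LXR targets (3) and lipid droplet genes (2) had no passing member in edgeR, with medians of 0.02, 0.02, 0.29, -0.26 and 0.12.

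Of 13 entries of the mitochondrial genome, read under their own names, 8 rose in SG12 and none fell. All 13 folds were above 0, with a median of 1.12, where 4.64% of all entries passed as higher. Their summed level was 2206 to 2816 CPM in the parental libraries and 4365 to 6965 CPM in SG12. MT-ND6, the 1 protein-coding gene on the light strand, was at 293, 191 and 258 CPM in parental cells and 2009, 936 and 1635 CPM in SG12. The SG12 libraries lay far above the parental ones, and the log2 fold change was 2.63 ± 0.55 (edgeR adjusted p = 0.0016). MT-ND5 and MT-CYB, the genes beside it on the heavy strand, were at 895, 855 and 1049 CPM in parental cells and 2246, 1505 and 2374 CPM in SG12 and at 338, 304 and 428 CPM in parental cells and 994, 616 and 1039 CPM in SG12, with folds of 1.13 ± 0.31 and 1.31 ± 0.31. MT-CO1 was at 0.39 ± 0.25 and did not pass. Given the strand of these counts, such entries can hold RNA of the other mitochondrial strand or leaked reads of the abundant transcripts, and the 2 cannot be told apart here. SG12 replicate 2 was the lowest of the SG12 libraries in 12 of the 13 entries, and the spread over libraries was wide in other groups too, as in SG12 in FBS, where MT-ND6 averaged 628 ± 656 CPM (SD, n = 3). Of the 8 calls 6 were lost without some single library (highest adjusted p 0.056 to 0.18): 6 without SG12 replicate 3, 5 without SG12 replicate 1, 5 without parental replicate 1, 4 without parental replicate 2 and 1 without SG12 replicate 2. DESeq2's Wald test lost 5 of them, the covariate for leaked reads 3 and taking library size as all uniquely aligned reads 2. MT-ND6 passed in each of these fits.

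Some entries read under their own names lost nearly all of their reads in SG12. YKT6 (chromosome 7, 44200968 to 44214294, plus strand), named for a SNARE protein of vesicle fusion, was at 48.3, 59.5 and 55.6 CPM in parental cells and 0.315, 0 and 1.3 CPM in SG12, and the 3 lines other than SG12 held about the same level in LPDS, with 53.1 ± 5.59 CPM (SD, n = 3) in SGCTRL and 50.8 ± 4.59 CPM in SG21. The log2 fold change against parental cells was -6.56 ± 0.34 (edgeR adjusted p = 8.11e-17), fitted on 5 reads in the 3 SG12 libraries and 565 in the parental ones, or 0.981% of the parental level with an exact 95% counting interval of 0.317% to 2.3%. In FBS the SG12 level was 1.74 ± 0.514 CPM against 34.8 ± 5.94 CPM. TNFAIP2 (chromosome 14, 103123442 to 103137439, plus strand) was at 14.6, 13.5 and 12.3 CPM in parental cells and 0.315, 0.676 and 0 CPM in SG12. Its 3 reads in SG12 against 136 in parental cells are 2.44% of the parental level with an exact 95% counting interval of 0.498% to 7.3%, with 1.64 ± 1.14 CPM in SG21 and 51.7 ± 3.88 CPM in SGCTRL. CDC42BPB, also on chromosome 14, was at 24.4, 22.5 and 27.1 CPM in parental cells and 0.944, 1.69 and 1.95 CPM in SG12 (-3.98 ± 0.35), and EIF4H at 5.28, 8.32 and 4.39 CPM in parental cells and 0.315, 0.338 and 1.95 CPM in SG12 (-2.75 ± 0.71). Given the strand of these counts, such reads can come from RNA opposite to the named gene or be leaked reads of the gene itself. They therefore do not give the level of its mRNA. For CDC42BPB an estimated 69.4% of the level could be leaked reads. The estimate needs an entry on the other strand of the gene, and leaked reads were not excluded for YKT6, TNFAIP2 and EIF4H. EIF4H was lost without parental replicate 2 or SG12 replicate 1 or 2 (adjusted p up to 0.0843) and with SGCTRL as control.

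The largest rises of that kind besides MT-ND6 were TMPRSS15, from 0.812, 2.45 and 2.47 CPM to 17.3, 18.9 and 15.3 CPM, EAF1, from 1.62, 2.2 and 1.37 to 9.44, 13.9 and 13.3 CPM, and PRELP, from 0, 1.22 and 1.64 to 8.5, 5.41 and 6.18 CPM. Their fitted folds of 3.07 ± 0.55, 2.77 ± 0.45 and 2.63 ± 0.61 rest on few parental reads (21, 18 and 11 in all 3 libraries), and PRELP did not pass with SGCTRL as control. SG21 had intermediate or similar levels, 6.98 ± 0.679, 6.7 ± 0.106 and 7.78 ± 3.65 CPM (SD, n = 3). For EAF1 an estimated 27.7% of the level could be leaked reads, and leaked reads were not excluded for TMPRSS15 and PRELP.

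Tested over all entries, SG12 in LPDS also differed from the other lines. Against SGCTRL 1402 entries passed (10.9%), 656 higher (5.12%) and 746 lower (5.82%), and against SG21 2343 (18.3%), 1122 higher (8.75%) and 1221 lower (9.52%). Of the source genes 20.8% passed against SGCTRL (7.42% higher, 13.4% lower) and 33.8% against SG21 (13.2% higher, 20.6% lower). With a term for the split in ambiguous reads, which separates all SGCTRL libraries and SG21 replicates 2 and 3 in LPDS from the rest, the counts fell to 181 and 1101, and the comparison with parental cells, all on 1 side of that split, gave 1385. The change of the SG12 minus parental difference between media passed in 1031 entries (8.04%), 416 higher (3.24%) and 615 lower (4.8%). With the leaked share as a covariate the larger side turned, with 225 of 374 higher and 149 lower. Among the named genes passing in the change between media, 29 of 37 passed in each fit with 1 library left out and 23 with the leaked share as a covariate.

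The labelled epithelial cell type could not be checked by source gene. Of 33 epithelial markers only CDH3, P-cadherin, was measured, at a log2 fold change of -1.08 that did not pass, and no gastric (22), leukocyte (20) or endothelial (12) marker was. Under the genes' own names, where leaked reads are counted, the summed epithelial markers stood at 72.9 to 93.5 CPM in the parental libraries and 84.7 to 93.0 CPM in SG12. The summed endothelial markers stood at 27.0 to 29.1 and 27.8 to 32.3 CPM, the gastric ones at 30.6 to 37.3 and 23.2 to 36.5 CPM, and the leukocyte ones at 99.1 to 150 and 148 to 157 CPM. Of 13 fibroblast markers 3 were measured by source gene, and ACTA2 and THY1 fell while FAP (0.14) did not pass. Summed under their own names they stood at 159.6 to 286 CPM in parental cells and 79.2 to 103 CPM in SG12, and COL1A1 alone at 78.9 to 135 and 38.9 to 56.2 CPM. EPCAM and CDH1 of the epithelial list, CD3E of the leukocyte list and CDH5 of the endothelial list had 0 reads under their own names in all 6 libraries. PTPRC of the leukocyte list had 3 reads in parental cells and 0 in SG12, PECAM1 of the endothelial list 0 and 1, and PDGFRB of the fibroblast list 1 and 2. Since few reads of a gene fall under its own name, such counts do not show that its RNA is absent. The part of other cells in the results was not tested.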

How the data were processed

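The authors deposited read counts per gene entry for 24 libraries of total RNA (stranded kit, ribosomal depletion). The submitters' processing notes name bcl2fastq, STAR and hg38; the counting program, its strand setting and its annotation are not given in the sources used here. Reads counted on no entry stayed out of library sizes. Counts on genes were 2.5 to 4.08 M per library compared, and intervals cover counting error only. A protein-coding gene was read under the entry whose exons overlap its own on the other strand (GENCODE 29, at least 50 bases), where that entry averaged above 5.73 CPM.

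An edgeR 4.0.16 quasi-likelihood model (R 4.3.3, TMM scaling, low counts filtered) covered all 24 libraries, with Benjamini-Hochberg adjustment over 12822 entries and a threshold of 0.05. It was checked on simulated data. SE is the log2 fold change over the root of F. Alternatives were DESeq2 1.42.0, other filters and scalings, technical covariates, a replicate block and each library left out. Members and lists were chosen with earlier results of these data known. Named genes are sterol genes fixed by name, from each list the 4 passing genes of lowest adjusted p, and the 10 largest rises and falls among source genes above 48.7 CPM with the lines apart (4 each among own-name entries). PRIM1, LRP8, VEGFA, SHMT2, VIM, FAP, CDH3, COL1A1, PTPRC, PECAM1, PDGFRB, markers at 0 reads and mitochondrial entries besides MT-ND6 were named after their values were seen. A few genes are not reported here. Promoters are RefSeq's, on GRCh38.p14.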

Additional observations from a re-analysis of the deposited data

Results flagged for a closer look

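For 37 named genes the difference between SG12 and parental cells was not the same in LPDS as in FBS, by edgeR's quasi-likelihood test of that change (adjusted p under 0.05, n = 3 libraries a group). The values here are the log2 difference of SG12 minus parental cells in LPDS, minus the same in FBS. In sterol genes the change was 1.34 for TMEM97, 1.04 for LSS, 1.12 for IDI1, 1.21 for HMGCS1 and 0.96 for ACAT2. Stress response and tRNA charging genes changed the other way, by -1.51 in SLC7A5, -1.26 in SLC1A5, -1.83 in SLC7A11, -0.97 in MTHFD2, -2.64 in WARS1 and -1.67 in AIMP2. Replication and recombination genes changed by 1.55 in MCM2, 0.74 in CDK2, 1.31 in CCNE2 and 1.33 in RAD54L.

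Genes of signals, matrix and the cell surface had changes of -1.36 (BDNF), -1.23 (NRP1), -1.19 (NRP2), -0.97 (NKD1), -0.92 (LOX), -0.90 (ZEB2), -0.56 (SULF2), -1.07 (ACTA2), -1.33 (ESPN), -2.34 (SNTB1) and 0.77 (BAIAP2L1). Among redox, organelle and metabolic genes they were 1.29 (PRDX1), -0.57 (FTH1), 0.39 (PDIA6), 0.85 (PHB1), -0.52 (PINK1), -0.60 (HEXA) and 0.72 (ALDOC). The others were SAMD11 (-2.51), S100A1 (1.03) and the entries YKT6 (-2.29) and CDC42BPB (-1.68). With the leaked share as a covariate 23 of the 37 passed, and 29 passed without each single library in turn. No group had more than 3 libraries, so single libraries were not tested for standing apart.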

How the results depend on the processing

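The count of 1243 entries between SG12 and parental cells in LPDS ran from 538 to 1224 with single libraries left out (747, 538 and 1224 without parental replicate 1, 2 or 3, and 776, 725 and 746 without SG12 replicate 1, 2 or 3), and from 1043 (no count filter) to 1778 (spread from the compared groups alone) under the other alternatives. Higher calls outnumbered lower ones, against 595 to 648 before, with no filter (572 to 471), with the spread from the compared groups alone (917 to 861) and without parental replicate 1 or 2. When library size was taken as all uniquely aligned reads, the split was 487 to 789. Against SGCTRL the count of 1402 became 181 with the term for the library split, 862 with the leaked share as a covariate and 890 to 1120 without single libraries. Against SG21 the count of 2343 became 1101 with the split term and 1667 to 2339 without single libraries. The change between media went from 1031 (416 higher, 615 lower) to 374 (225 higher, 149 lower) with the leaked share as a covariate and ran from 833 to 1235 without single libraries. The causes were not tested. Among named genes the sign of the fold turned for SREBF1 (-0.034 without parental replicate 2, -0.0072 without SG12 replicate 3, up to 0.21 without single libraries) and SREBF2 (-0.0082 without parental replicate 3, -0.031 and -0.052 without SG12 replicate 2 or 3, up to 0.12, and -0.057 against SGCTRL). It also turned for HMGCS1 (-0.52 against SGCTRL) and ALDOC (-0.031 against SGCTRL). Replicates share only a number: the deviations of libraries of the same number in both lines correlated at -0.0101, -0.0268 and -0.0542, and no library correlated best with its own number. With the replicate block 1316, 1499, 2412 and 1094 entries passed in the 4 comparisons. At 2.5 to 4.08 M counts per library, entries of a few CPM rest on few reads and their differences are poorly resolved.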
